A study of Mus musculus with 5 samples.

Results

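The 10 genes described here are Pi16, Dpp4, Cd34, Ly6a, Ly6c1, Cd55, Gsn, Clec3b, Penk and Thy1, a set used to mark adventitial fibroblasts, the connective tissue cells that lie around vessels and at the outer border of organs. They were taken by name from a table of 23857 genes, and all 10 were listed and tested among 19292 genes. RNA was sequenced from YFP-positive stromal cells sorted out of the oviducts of 5 young adult female mice, 1 library per mouse. Mice 2 and 3 of the control group carried Pdgfra-Cre with the R26Y reporter and are labelled wild-type. Mice 1, 2 and 3 of the other group carried the same driver and reporter together with Esr1(fl/fl), so that Esr1, the gene of estrogen receptor alpha, can be deleted in cells that express the driver. Both groups therefore carry the recombinase and YFP. The sort aims at cells that used the Pdgfra promoter, though the fraction also held RNA of other cells, as given below. The comparison asks how these genes differ in oviductal stroma when Esr1 is floxed.

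In single-cell surveys of many mouse organs, fibroblasts with Pi16, Dpp4 and Cd34 form a population shared between tissues, found in the adventitia and thought to act as a reserve for more specialised fibroblasts. Its marker proteins are of different kinds: GPI-anchored or transmembrane surface proteins by which the cells are sorted, and secreted proteins. Several are not private to fibroblasts, since endothelial cells carry Cd34, Ly6a and Ly6c1, T lymphocytes carry Thy1 and Dpp4, and some monocytes carry Ly6C proteins.

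The 10 markers lay on both sides of the controls. Pi16 and Penk lay above both controls in all 3 libraries labelled knockout, with group means 2.74 and 2.92 times the control mean. Dpp4, Cd34 and Cd55 lay below both controls in all 3, with ratios of group means of 0.477, 0.557 and 0.705. For Thy1, Ly6a, Ly6c1, Clec3b and Gsn the groups overlapped. None of the 10 passed an adjusted p of 0.05 over all genes (limma), a threshold that 0.0259% of all tested genes passed. At an unadjusted p under 0.05 there were 2 markers higher, where 3.70% of all tested genes were, and 3 lower, where 9.87% were. The 2 markers above both controls stand beside 11.9% of all tested genes, and the 3 below both beside 21.9%. The median log2 fold change of the 10 was -0.23, against -0.022 over all tested genes, and it turned to 0.16 when control mouse 2 was left out and to 0.027 when knockout mouse 3 was. Fold changes here are labelled knockout minus control on the log2(TPM + 1) scale, where TPM is a level per transcript length with an equal sum for every library.

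Esr1 itself does not separate the groups. Control mice 2 and 3 had 83.3 and 77.6 TPM of Esr1, and the libraries labelled knockout had 28.9, 85.0 and 169.9 TPM (mice 1, 2 and 3; log2 fold change -0.10, standard error 0.64, limma adjusted p 0.948). Only the library labelled knockout mouse 1 was below the controls, so every direction given here is one between labels. Values per gene cannot show whether floxed exons are missing. Pdgfra, the gene of the driver, spanned 165 to 298 TPM in the 3 libraries labelled knockout and 188 to 225 TPM in controls. In bulk RNA, fewer cells of a type and less RNA per cell cannot be told apart.

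The sorted fraction also held RNA of other cells, and part of it differed with the labels. For comparison, 21.9% of all tested genes had every library labelled knockout under both controls. Of 10 leukocyte and macrophage markers, 9 lay under both controls in every library labelled knockout, with summed levels of 2903 and 3518 TPM in controls and 947 to 2224 TPM in the others. All 5 mesothelial markers lay below both controls, with sums of 420.2 to 529.7 TPM in controls and 161 to 256 TPM in the others. The 11 epithelial markers summed to 3039.6 and 3343 TPM in controls, 2168 TPM in knockout mouse 1, and 12087 and 13178 TPM in mice 2 and 3, most of it Ovgp1, an oviduct secretory protein. Endothelial markers (10 genes, 274 to 303 TPM in controls and 200.1 to 318 TPM in the others) and pericyte and smooth muscle markers (10 genes, 418 to 566 TPM and 449.5 to 478 TPM) overlapped in their sums. No listed gene of any of these lists was at 0 in all libraries. The part of these cells in the values below was not tested.

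All 10 markers were well expressed. Their mean over the 5 libraries ranked between the 74.6th percentile of tested genes, for Dpp4, and the 99.9th, for Gsn. In controls the order by mean level was Gsn, Cd34, Clec3b, Penk, Ly6a, Cd55, Pi16, Ly6c1, Dpp4 and Thy1. Gsn was set apart from Cd34, Penk from Ly6a and Cd55 from Pi16, and the other neighbours in this order overlapped between the 2 control mice. In the libraries labelled knockout Penk took the second place by mean and Pi16 the fifth, while Dpp4 came last.

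**Figure D1:**
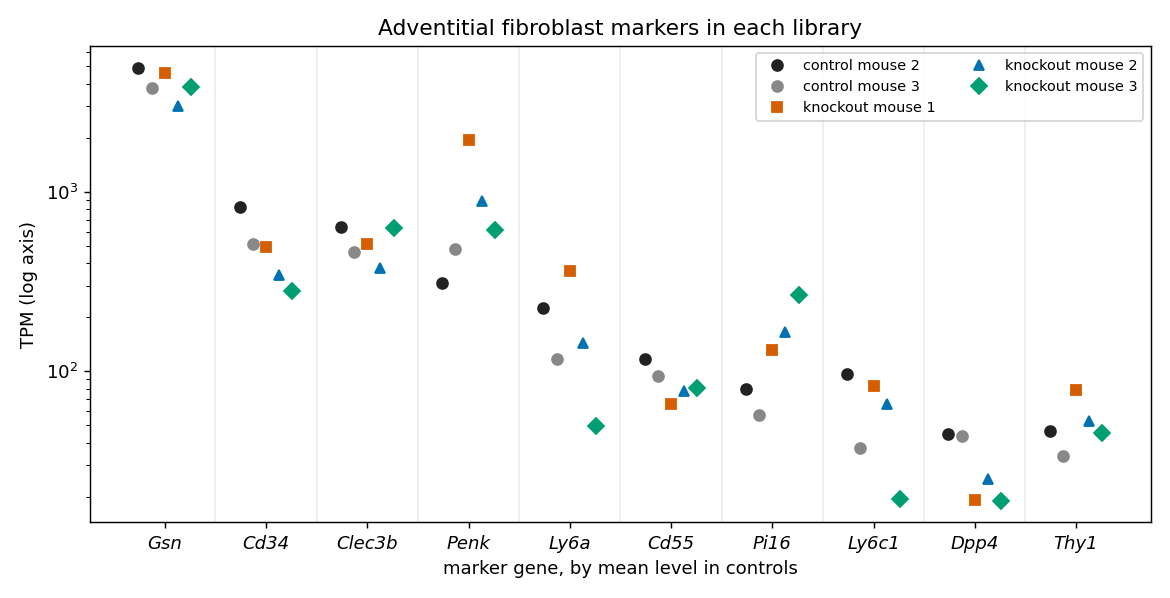
TPM of each marker (log axis) in the 2 control libraries (circles) and the 3 libraries labelled knockout (square, triangle and diamond), with genes ordered by mean level in controls. Pi16 and Penk are higher in every library labelled knockout than in both controls, Cd34, Cd55 and Dpp4 are lower, and Ly6a and Ly6c1 spread most within the knockout label.

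The sequences before the start sites of the markers that lay lower in every library labelled knockout are shown because their levels differed in the same direction. RefSeq start sites for GRCm38.p6, the assembly also called mm10, were matched by symbol for 6 of the 10 markers, with 9 windows of 250 bases. Letters in capitals are matches to GGTCA, the half-site that estrogen receptor alpha binds, read on either strand (TGACC on the other). Dpp4 lies on the minus strand of chromosome 2 and its window at chr2:62412232-62412481, Cd55 on the minus strand of chromosome 1 at chr1:130462745-130462994, and the Cd34 stretch, on the plus strand, is limited to 240 bases at chr1:194938571-194938810, so that it ends before the first annotated exon.
Dpp4: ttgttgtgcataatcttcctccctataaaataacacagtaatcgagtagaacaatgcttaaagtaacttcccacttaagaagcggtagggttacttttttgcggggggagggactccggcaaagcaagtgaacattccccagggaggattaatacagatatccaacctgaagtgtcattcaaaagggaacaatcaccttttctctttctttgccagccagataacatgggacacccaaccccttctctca
Cd55: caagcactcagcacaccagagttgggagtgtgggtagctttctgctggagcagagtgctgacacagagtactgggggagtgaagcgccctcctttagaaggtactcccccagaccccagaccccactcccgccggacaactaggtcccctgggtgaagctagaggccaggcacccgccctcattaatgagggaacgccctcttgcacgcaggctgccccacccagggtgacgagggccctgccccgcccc
Cd34: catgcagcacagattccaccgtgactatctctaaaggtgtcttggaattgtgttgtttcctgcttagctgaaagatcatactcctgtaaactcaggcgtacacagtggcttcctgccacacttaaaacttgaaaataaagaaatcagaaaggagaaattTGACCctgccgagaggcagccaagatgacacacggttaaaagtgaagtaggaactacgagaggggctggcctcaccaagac

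Cd34 held 1 half-site, 91 bases before its start, and Dpp4 and Cd55 held none. The matches of the other markers with a window were in Pi16, on the plus strand at chr17:29318744-29318768, and in Ly6c1, on the minus strand at chr15:75048947-75048971, shown as 25 bases each.
Pi16: gttgctgtcaTGACCcttgcatcat
Ly6c1: ggcttgatcaGGTCAcaaacaaatc
The match lay 128 bases before the start in Pi16 and 124 in the first of 2 starts of Ly6c1. The Pi16 window lies within the gene and overlaps 3 annotated Pi16 exons, and the bases just after that Ly6c1 start are in none of the gene's GENCODE transcripts. Of all 32851 windows of the same length, 35.2% hold a GGTCA on either strand and 0.064% the full palindrome, GGTCA and TGACC with any 3 bases between them, which none of the 9 windows held. A match is a run of letters and not evidence of binding. The 3 windows with a match belong to 1 marker that was higher, 1 that was lower and 1 whose groups overlapped.

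Among the surface proteins, Dpp4 differed most. Dpp4 is a membrane-bound serine peptidase that removes dipeptides from the ends of chemokines and hormones, and its gene spans chr2:62330073-62412231. Control mice 2 and 3 had 44.7 and 43.6 TPM, against 19.2, 24.95 and 19.0 TPM in knockout mice 1, 2 and 3. The controls differed by less than any library labelled knockout did from them. The log2 fold change was -1.04 (standard error 0.19, 95% interval -1.49 to -0.60, limma adjusted p 0.140). With libraries centred on 10 stromal reference genes it was -0.43. The exact permutation test gave p 0.1, the smallest that its 10 assignments allow.

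Cd34, a sialomucin of the cell surface on fibroblasts, endothelium and blood stem cells, had 819 and 514 TPM in the controls. Knockout mice 1, 2 and 3 had 489, 345 and 279 TPM, so mouse 1 lay just under control mouse 3. The log2 fold change was -0.84 (standard error 0.31, 95% interval -1.57 to -0.12, limma adjusted p 0.329, exact permutation p 0.2), and it was -0.51 without control mouse 2. Its gene lies at chr1:194938819-194961279.

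Cd55, or decay-accelerating factor, is a GPI-anchored protein that shields cells from complement. It measured 118 and 94.1 TPM in controls against 66.0, 77.4 and 80.4 TPM, a narrow spread within the knockout label. Its log2 fold change was -0.50 (standard error 0.18, 95% interval -0.92 to -0.068, limma adjusted p 0.329, exact permutation p 0.1), and it turned to 0.12 when libraries were centred on 10 stromal reference genes. That centring shifted the fold change of every gene by the same amount and raised the median of all tested genes to 0.59. The place of Cd55 under that median could not change and is no further result. Cd55 (chr1:130439027-130462744) has a neighbour copy 16.0 kb away, Cd55b, and 12.5% of the 50-base windows of its longest transcript also occur in another gene. Cd55b was listed at 0.99 to 2.74 TPM.

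Thy1, a small GPI-anchored protein of fibroblasts, neurons and T cells (chr9:44043384-44048579), had 46.3 and 33.8 TPM in controls and 78.1, 53.2 and 45.2 TPM in knockout mice 1, 2 and 3. The groups overlapped, since mouse 3 lay under control mouse 2. The log2 fold change was 0.52 with a 95% interval of -0.12 to 1.16 (limma adjusted p 0.427).

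Ly6a and Ly6c1, small GPI-anchored proteins known as Sca-1 and part of Ly6C, varied more among mice than between labels. Ly6a reached 227 and 117.6 TPM in controls and 359.8, 143 and 49.9 TPM in knockout mice 1, 2 and 3, a 7.22-fold range within the knockout label. Ly6c1 reached 95.9 and 37.6 TPM in controls and 82.4, 65.4 and 19.4 TPM in the others, a 4.25-fold range. Both genes were lowest in knockout mouse 3 and overlapped between groups. The log2 fold changes were -0.25 (95% interval -2.02 to 1.53) and -0.34 (95% interval -1.87 to 1.19), with limma adjusted p of 0.886 and 0.814. These intervals include a halving and a doubling, so neither sameness nor a difference is shown. Both fold changes were above 0 when control mouse 2 or knockout mouse 3 was left out. With libraries centred on 10 stromal reference genes, which shifts all genes alike, they were 0.36 and 0.27. The median tested gene was at 0.59 in that fit.

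The Ly6 genes are close copies, which bears on how far their values can be separated. Ly6a (chr15:74994877-74998031) and Ly6c1 (chr15:75044018-75048830) lie 46.0 kb apart, and Ly6c2 lies another 59.3 kb on. Of the 50-base windows of the longest Ly6c1 transcript, 36.7% also occur in another gene, mainly Ly6c2. For Ly6a the share was 10.04%. The read length and the treatment of reads that match several genes are not given in the sources used here, so the split of reads among these genes is uncertain. The first 60 coding bases of the GENCODE M21 transcripts show the likeness, with letters that differ from Ly6c1 in capitals.
Ly6c1: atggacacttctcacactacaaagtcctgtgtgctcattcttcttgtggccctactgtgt
Ly6c2: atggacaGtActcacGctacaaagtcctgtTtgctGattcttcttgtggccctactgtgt
Ly6a: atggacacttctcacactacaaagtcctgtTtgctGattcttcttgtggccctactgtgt

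Over this stretch Ly6c2 differs from Ly6c1 at 5 bases and Ly6a at 2. The stretch does not rank the copies over their length, since the shared windows of Ly6c1 are mainly with Ly6c2. The coding sequences had 441 (Ly6c1), 393 (Ly6c2) and 402 bases (Ly6a) and were not compared in full. Ly6c2, a Ly6C gene of monocytes that was named after its values were seen, had 22.7 and 25.8 TPM in controls and 13.1, 14.8 and 1.37 TPM in knockouts 1, 2 and 3, and a log2 fold change of -1.64 with a standard error of 0.78 (adjusted p 0.401 in limma). It was thus lowest in the same library as Ly6a and Ly6c1. The ratio of Ly6c1 to Ly6a TPM within a library stayed between 0.229, in knockout mouse 1, and 0.458, in knockout mouse 2.

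Lymphocyte genes shared part of this order. Of the 9 listed T and NK markers, 4 were highest in knockout mouse 1 and 8 were lowest in knockout mouse 3. Cd3e and Cd3g, subunits of the T cell receptor complex, were highest in knockout mouse 1 (35.9 and 40.4 TPM) and lowest in knockout mouse 3 (2.57 and 1.57 TPM), with 9.24 to 17.2 TPM in the remaining libraries. All 9 together summed to 64.7 and 78.9 TPM in controls and to 120.3, 64.2 and 23.5 TPM in knockout mice 1, 2 and 3, a sum in which Cd3e and Cd3g weigh most in mouse 1. Cd2, an adhesion receptor of T cells, had 18.8 and 26.3 TPM in controls and 10.8, 13.7 and 7.29 TPM in the others, and so lacked the high value in mouse 1. Ptprc, the pan-leukocyte gene, was also lowest in knockout mouse 3, at 15.6 TPM. The endothelial genes Pecam1 and Cdh5 were lowest there too, within smaller ranges of 27.5 to 47.0 and 26.7 to 46.2 TPM. The 10 endothelial markers summed to 200.1 TPM there, the lowest sum of all libraries. Ly6a was at least 8.31 times the level of Cd3e in each library. The part of lymphocytes and of endothelium in Ly6a, Ly6c1 and Thy1 was not tested.

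**Figure D2:**
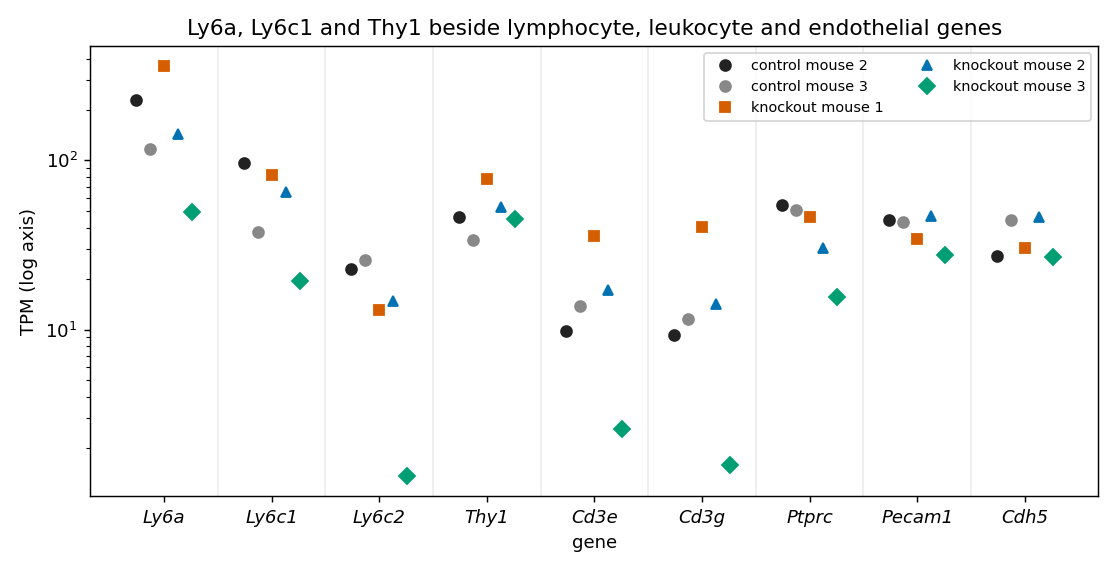
TPM (log axis) of Ly6a, Ly6c1, Ly6c2 and Thy1 beside the T cell genes Cd3e and Cd3g, the leukocyte gene Ptprc and the endothelial genes Pecam1 and Cdh5 in all 5 libraries. The library of knockout mouse 3 (diamond) is lowest for Ly6a, Ly6c1, Ly6c2, Cd3e, Cd3g, Ptprc, Pecam1 and Cdh5. Thy1 there lies between the controls.

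Of the secreted and cytoplasmic proteins, Pi16 showed the clearest separation. Pi16, or peptidase inhibitor 16, is a CAP-domain protein used as the naming marker of this fibroblast state, and its gene lies at chr17:29317680-29330593. Control mice 2 and 3 had 79.6 and 57.4 TPM, against 131, 164 and 267 TPM in knockout mice 1, 2 and 3. The lowest library labelled knockout lay well above the higher control, and mouse 3 stood highest. The log2 fold change was 1.39 (standard error 0.32, 95% interval 0.65 to 2.14, limma adjusted p 0.192), with the smallest exact permutation p that the design allows, 0.1. Of its 50-base windows, 4.46% are shared with the annotated gene AC162182.1.

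Penk encodes proenkephalin, the precursor of the enkephalins, opioid peptides made by neurons and also by some fibroblasts. Its level was 311 and 477 TPM in controls and 1953, 886 and 608 TPM in knockout mice 1, 2 and 3. Every library labelled knockout was above the controls, and mouse 1 stood far above the rest. The log2 fold change was 1.40 (standard error 0.48, 95% interval 0.26 to 2.54, limma adjusted p 0.312, exact permutation p 0.2), and without knockout mouse 1 it was 0.93. Penk is at chr4:4133531-4138819, and 7.71% of its 50-base windows are shared with the annotated gene A830012C17Rik.

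Clec3b and Gsn, the other abundant secreted markers, did not separate. Clec3b encodes tetranectin, a plasminogen-binding lectin (chr9:123150946-123157432), with 640.1 and 461 TPM in controls and 510.02, 377 and 631 TPM in knockout mice 1, 2 and 3. Gsn encodes gelsolin, which severs actin filaments and has a secreted form (chr2:35256380-35307892), with 4914 and 3797 TPM in controls and 4555, 2984 and 3820.2 TPM in the others. The log2 fold changes were -0.13 (95% interval -0.78 to 0.52) and -0.21 (95% interval -0.96 to 0.54), with limma adjusted p of 0.829 and 0.763. Clec3b was above 0 when either mouse numbered 2 was left out. With stromal centring, which shifts all genes alike, Clec3b was at 0.48 and Gsn at 0.40. The median of all tested genes was 0.59 in that fit.

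**Figure D3:**
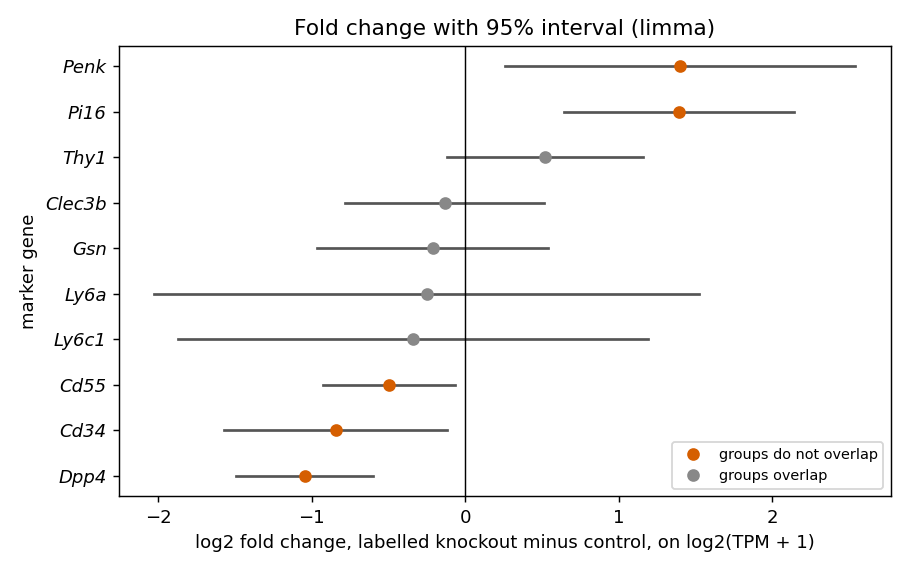
Log2 fold change of each marker (labelled knockout minus control, on log2(TPM + 1)) with its 95% limma interval, orange where the 3 libraries labelled knockout did not overlap the 2 controls. Pi16 (1.39) and Penk (1.40) lie to the right, Dpp4 (-1.04), Cd34 (-0.84) and Cd55 (-0.50) to the left, and the intervals of the other 5 include 0.

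Because Pi16 and Dpp4 mark the same cells in other organs, their ratio within a library was taken, which does not depend on scaling between libraries. Pi16 was 1.78 and 1.32 times Dpp4 in control mice 2 and 3, but 6.86, 6.59 and 14.01 times Dpp4 in knockout mice 1, 2 and 3. The ratio of Pi16 to Cd34 was 0.0972 and 0.112 in controls and 0.269, 0.477 and 0.956 in the others. Penk to Cd34 went from 0.379 and 0.928 to 3.99, 2.57 and 2.18. In all 3 ratios the groups were apart, and the single values fixed this in advance. Each ratio sets a marker above both controls in every library labelled knockout over a marker below both. These pairs were picked after the single values were seen and serve as a description. Clec3b to Gsn, by contrast, stayed between 0.112 and 0.165 in all 5 libraries.

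The libraries labelled knockout also differed from each other. In mouse 1, 4 markers lay above both controls (Pi16, Penk, Thy1 and Ly6a) and 3 below (Cd34, Dpp4 and Cd55). Mouse 2 had 3 above and 5 below, and mouse 3 had 2 above and 5 below. The share of all tested genes outside both controls was not computed for single libraries. These counts are therefore a description and no result about the markers. Penk, Thy1 and Ly6a were highest in mouse 1 and lowest in mouse 3, and Pi16 was lowest in mouse 1 and highest in mouse 3. Without the library of mouse 1, Pi16 had a log2 fold change of 1.62 with a limma adjusted p of 0.0282, and Dpp4 one of -0.98 with an adjusted p of 0.0293. In that fit 5.35% of all genes passed as higher and 2.63% as lower. Mouse 1 was also the only library labelled knockout with Esr1 below the controls, at 28.9 TPM. The fit without it thus sets controls at 83.3 and 77.6 TPM of Esr1 against libraries at 85.0 and 169.9 TPM. Without any of the other 4 libraries no marker passed.

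**Figure D4:**
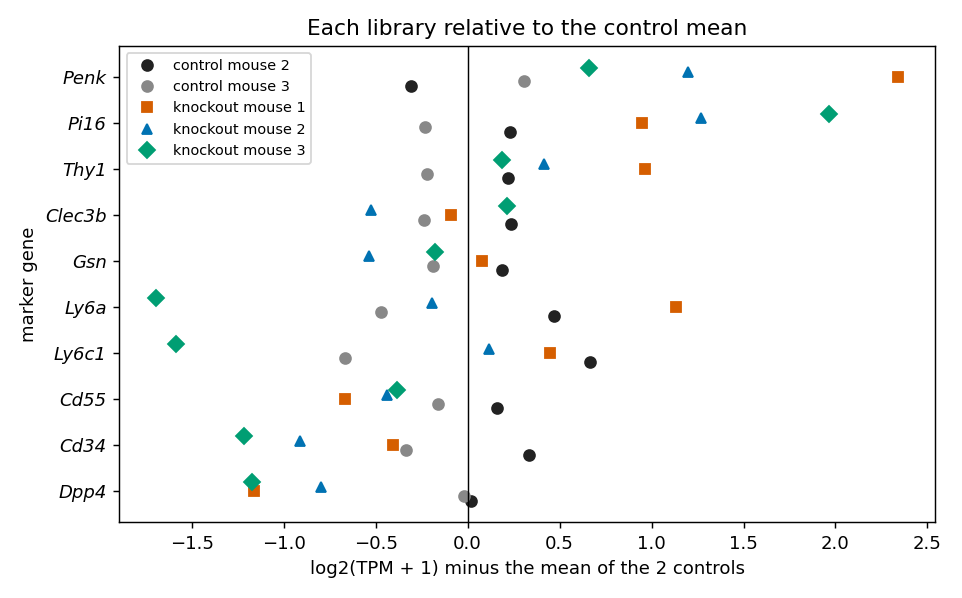
Log2(TPM + 1) of each marker in each library minus the mean of the 2 controls, with genes ordered by fold change. Dpp4 is nearly equal in the controls and about 1 unit lower in all 3 libraries labelled knockout, whereas Ly6a and Ly6c1 place knockout mouse 1 above the control mean and mouse 3 below it.

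Other genes reported for Pi16-type adventitial fibroblasts lay on both sides as well. Of 24 such genes, all tested, 0 passed an adjusted p of 0.05 (limma), 2 were higher and 7 lower at an unadjusted p under 0.05, and 2 lay above and 8 below both controls. Over all tested genes the shares were 3.70% and 9.87% at that p, and 11.9% above and 21.9% below both controls. Their median log2 fold change was -0.53. Emilin2, an elastic-fibre glycoprotein, had 76.5 and 56.4 TPM in controls and 25.5, 22.9 and 22.6 TPM in knockouts 1, 2 and 3, and a log2 fold change of -1.44 with a standard error of 0.19 (adjusted p 0.0893 in limma). Adgrd1, an adhesion G protein-coupled receptor, and Creb5, a transcription factor, also lay below both controls, with log2 fold changes of -1.22 and -0.88.

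On the other side, Il33, an alarmin cytokine stored in stromal nuclei, had 38.0 and 29.2 TPM in controls and 169, 89.3 and 67.6 TPM in the others. Its log2 fold change was 1.57 (standard error 0.37, limma adjusted p 0.197), and like Penk it was highest in knockout mouse 1 and lowest in mouse 3. Mfap5, a microfibril protein, went from 96.5 and 79.6 TPM to 105, 122 and 155 TPM, highest in mouse 3 as Pi16 was (log2 fold change 0.52, limma adjusted p 0.361). Sema3c, a secreted guidance protein, overlapped between groups (log2 fold change 0.55, limma adjusted p 0.421).

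Genes of the other widespread fibroblast state, marked by Col15a1 and a basement-membrane matrix, were compared as the nearest alternative identity. Of 12, 0 passed (limma), and 1 was higher and 4 lower at an unadjusted p under 0.05, against 3.70% and 9.87% of all tested genes. Above both controls lay 1 and below both 5, against 11.9% and 21.9% of all tested genes. The median log2 fold change of the 12 was -0.36. Hspg2 (perlecan), Sparcl1 and Dpt (dermatopontin) lay below both controls, with log2 fold changes of -0.86, -0.74 and -0.89. Smoc2, a matricellular calcium-binding protein, had 44.4 and 42.4 TPM in controls and 102, 101 and 143 TPM in knockouts 1, 2 and 3, and a log2 fold change of 1.37 with a standard error of 0.20 (adjusted p 0.117 in limma). The 10 stromal reference genes, collagens and other mesenchymal genes, had a median of -0.68, led by Lum at -2.01. No test set these lists against each other.

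**Figure D5:**
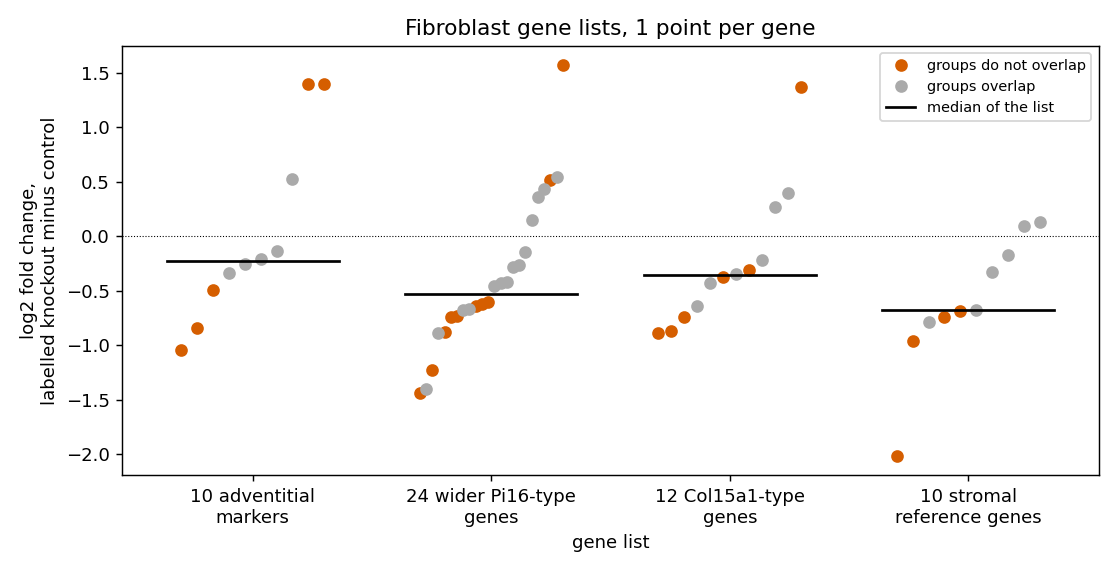
Log2 fold change (labelled knockout minus control) of each gene in 4 lists, orange where the groups did not overlap, with a bar at the list's median. The medians are -0.23 for the 10 markers, -0.53 for 24 wider Pi16-type genes, -0.36 for 12 Col15a1-type genes and -0.68 for 10 stromal reference genes, and each of the first 3 lists holds genes on both sides of 0 whose groups do not overlap.

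Relatives of single markers were read from family lists, in none of which a gene passed (limma, 0 genes at an adjusted p under 0.05). Among dipeptidyl peptidases, 7 of 8 tested, 0 were higher and 3 lower at an unadjusted p under 0.05, Dpp4 included. The shares of all tested genes were 3.70% and 9.87%. Fap, the closest relative of Dpp4 and itself a marker of activated fibroblasts, had 36.5 and 27.2 TPM in controls and 15.5, 14.9 and 17.7 TPM in knockouts 1, 2 and 3, and a log2 fold change of -0.93 (limma adjusted p 0.187). Dpp7, a lysosomal member, had a log2 fold change of -0.53. In the Cd34 family all 3 members, Cd34 included, lay below both controls, where 21.9% of all tested genes did. Podxl (podocalyxin) had a log2 fold change of -0.61, and Podxl2 (endoglycan) ranged from 14.2 to 17.9 TPM over all libraries. With stromal centring, which shifts all genes alike, Dpp7 and Podxl were at 0.079 and 0.0075. The median of all tested genes was 0.59 in that fit.

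Ly6 and uPAR-domain relatives numbered 13, of which 12 were tested, with 4 lower and 0 higher at an unadjusted p under 0.05, against 9.87% and 3.70% of all tested genes. Plaur, the urokinase receptor, had 41.4 and 37.9 TPM in controls and 14.1, 19.1 and 12.5 TPM in the others (log2 fold change -1.34, limma adjusted p 0.118). Ly6h and Ly6d also lay below both controls, with log2 fold changes of -1.97 and -0.95. Among CAP-domain relatives of Pi16, 7 of 8 tested, 2 were higher at an unadjusted p under 0.05, Pi16 and Crispld1, and 0 lower. Of all tested genes 3.70% and 9.87% were. By sign of the fold change 2 were higher and 5 lower, with a median of -0.51. Crispld1 had 22.8 and 21.3 TPM in controls and 47.6, 31.9 and 32.7 TPM in the others (log2 fold change 0.71, limma adjusted p 0.271). Pi15, the nearest by name, went the other way in its mean (log2 fold change -0.81, limma adjusted p 0.427) and overlapped between groups. Glipr2 lay below both controls in every library labelled knockout (log2 fold change -0.51, limma adjusted p 0.383).

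The opioid pathway around Penk was sparse. Of 12 genes 9 were tested, and 2 were higher at an unadjusted p under 0.05, Penk and Mme, against 3.70% of all tested genes. Mme encodes neprilysin, a membrane peptidase that breaks enkephalins down. It had 13.5 and 20.4 TPM in controls and 40.3, 59.6 and 39.9 TPM in knockouts 1, 2 and 3, and a log2 fold change of 1.41 with a standard error of 0.26 (adjusted p 0.143 in limma), above both controls in all 3. The receptor genes Oprm1, Oprd1 and Oprk1 were at 0.60, 1.53 and 0.32 TPM at most in any library. Of the enzymes that release and trim enkephalins, Pcsk1 and Pcsk2 reached at most 1.04 and 1.79 TPM, and Cpe, a carboxypeptidase, lay between 224 and 309 TPM.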

How the data were processed

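The authors deposited TPM per gene, which summed to 1000000 in each of 5 libraries. The name of the deposited table mentions STAR, and mm10 is the build in the submitters' processing notes. The counter, annotation and filters are not given in the sources used here. TPM keeps no read counts, and no depth or counting error was estimated here. Between 15841 and 19432 genes reached 1 TPM per library, and Rpph1, a non-coding RNA, took 13.1% to 22.3% of TPM.

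Values were converted to log2(TPM + 1), which understates changes of low genes. Genotype was fitted with limma 3.58.1 in R 4.3.3 (eBayes with trend) over 19292 genes with at least 1 TPM in at least 2 libraries. P-values were two-sided and adjusted by Benjamini-Hochberg over all of them. An exact permutation test over 10 assignments was added for each marker. The fit was tested on simulated data. Python 3.11.15 was used for sequences, read from RefSeq and GENCODE M21 tables of GRCm38.

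The markers and lists were chosen with earlier results of these data known. Named are the 10 markers, Esr1, Pdgfra, and of each list, in each direction, up to 3 genes with the smallest p and a mean of at least 1 TPM. Muc16 and Trbc2 were not analysed here. Other genes given as levels were added after their values were seen.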

Additional observations from a re-analysis of the deposited data

How the results depend on the processing

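Over 15 alternatives per marker, Pi16, Penk, Thy1, Cd34 and Dpp4 kept their direction in all, and none of the 10 markers lost a call, since none had one. Of 150 such values, 127 kept direction and side of the threshold, 12 came to pass and 11 turned. Of 614 for other named genes, 532 kept both, 70 came to pass and 12 turned. Changing the filter on low values or leaving out the trend does not alter a fold change. Direction could not turn in those fits, so the counts of kept directions overstate what was tried. Centring on stromal reference genes raised the median of all tested genes to 0.59 and gave 3 markers higher and 0 lower at an adjusted p under 0.05, 0 lower at an unadjusted p, and 5 above and 0 below both controls. Of all tested genes 8.59% then passed as higher at an adjusted p, 1.25% were lower at an unadjusted p, and 49.7% lay above and 2.30% below both controls. The marker median was then 0.38, with Ly6a at 0.36, Ly6c1 at 0.27, Cd55 at 0.12, Clec3b at 0.48 and Gsn at 0.40. Cd34 was at -0.23 and Dpp4 at -0.43, both nearer 0 than in the main fit. Esr1 was at 0.51, Dpp7 at 0.079, Podxl at 0.0075, Avil at 0.049, Glipr2 at 0.11 and Mcam at 0.050. This centring shifts every gene alike, so no gene could change sides of the median of all tested genes. Library weights gave 1 marker higher and 1 lower at an adjusted p under 0.05 (1.35% and 2.05% of all tested genes) and Esr1 at 0.15. With the mouse number as a replicate block there were 1 higher and 4 lower (6.04% and 3.59% of all tested genes), 5 lower at an unadjusted p (10.8%), Esr1 at 0.57 and Pdgfra at -0.074. Mouse 1 has no partner there, so the fold changes equal those of the fit without knockout mouse 1. These fits are not separate alternatives for direction. Deviations from group means of same-numbered libraries correlated at -0.060 and -0.072. With 2 controls, whose deviations mirror each other, these values cannot show whether same-numbered mice are related. The labels link them by number only. Leaving out 1 knockout library at a time gave 0 to 1 markers higher and 0 to 1 lower at an adjusted p under 0.05. The shares of all tested genes were 0% to 5.35% and 0% to 2.63%. Leaving out any 1 library put 3 to 6 markers below both controls or the remaining control. Of all tested genes 24.6% to 31.3% lay there, so these counts are no result about the markers. The median ran from -0.53 to 0.16, Ly6a from -0.94 to 0.47, Ly6c1 from -1.005 to 0.32, Clec3b from -0.37 to 0.10, Esr1 from -0.68 to 0.57 and Pdgfra from -0.074 to 0.35. Without a control, the lone control is assumed to vary like the other group. The cause of these shifts was not tested.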

Other observations

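Among 8 tested complement regulators, 1 was lower at an unadjusted p under 0.05 (limma), Cd55 itself, and 0 passed an adjusted p of 0.05. Of all tested genes 9.87% were lower at that unadjusted p. Cr1l, the rodent membrane regulator Crry, had 77.4 to 82.9 TPM in controls and 86.6 to 90.5 TPM in the libraries labelled knockout, a level near that of Cd55. Cd59a, which blocks the last step of the complement cascade, had 16.7 to 16.8 TPM in controls and 17.9 to 25.5 TPM in the others. Both lay above the controls in every library labelled knockout, where 11.9% of all tested genes did, and neither passed the test.

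In the gelsolin family Gsn stood far above the rest, with Capg next at 63.6 to 113 TPM. Of 8 tested, 1 was lower at an unadjusted p under 0.05, Vil1 (villin), against 9.87% of all tested genes. Vil1 was at 3.94 and 4.20 TPM in controls and 0.79 to 2.52 TPM in the others.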
